A study of Mus musculus with 6 samples.

Results

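ATP-binding cassette (ABC) transporter transcripts were examined in 4T1 cells, a mouse mammary carcinoma line described by its depositors as triple-negative. Members were the protein-coding genes whose GENCODE M21 symbol starts with Abca to Abcg and a number. That rule finds 50 annotated genes, of which 45 had a value among the 28418 genes of the deposited tables. Abca14, Abca15, Abca16, Abcb5 and Abcc6 were not analysed here. The study kept 4T1 cells for 35 passages with 0 nM or 100 nM PFOS (perfluorooctane sulfonate, a surfactant that persists in the environment) and sequenced polyadenylated RNA in 3 libraries per group. Both groups are this 1 line after the same number of passages, and the labels name PFOS as the only difference, with no further agent or allele. They do not say that the 3 libraries of a group are separate cultures. The p-values therefore rest on a spread between libraries that may be technical only. Values are FPKM, fragments mapped to a gene scaled by transcript length and by all mapped fragments, so levels can be compared between genes.

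An ABC protein couples ATP hydrolysis at a pair of nucleotide-binding domains to movement of a substrate across a membrane. Most members of subfamilies A to D and G carry substrates such as lipids, sterols, drugs, conjugates, peptides or heme precursors across cell or organelle membranes. Some are known as pumps that make tumour cells resistant to chemotherapy. Subfamilies E and F keep the ATPase domains but lack a membrane part, and act on ribosomes.

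Library sums lay between 306716 and 309381 FPKM, and read depth was not recovered from the values. All 11 epithelial markers (such as Epcam, Cdh1 and Krt8) were above 0 in every library, with sums of 784 to 785 FPKM at 0 nM and 817 to 878 FPKM at 100 nM. Replicate 3 at 100 nM stood apart. Its 13 T cell and natural killer cell markers summed to 29.7 FPKM with none at 0, against 1.28 to 1.59 FPKM in the other 5 libraries, where 8 to 11 of them were at 0. Its 15 type I interferon response genes summed to 196 FPKM against 71.4 to 87.9 FPKM. The 11 macrophage and granulocyte markers summed to 156 to 200 FPKM at 0 nM and 153 to 307 FPKM at 100 nM. Most of each sum was Lyz2 (103 to 240 FPKM). In replicate 1 at 100 nM only 2 of the 11 were at 0, the granulocyte genes S100a8 and S100a9. Others were not low there, such as C1qb at 5.70 FPKM against 3.52 to 5.11 FPKM at 0 nM. In such bulk samples, fewer cells of a type and less RNA per cell cannot be told apart.

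Members at or above a mean of 1 FPKM over the 6 libraries were counted as expressed. They numbered 19 of 45 (42.2%), where 10232 of 16765 protein-coding genes (61.0%) reached that level. By subfamily, expressed members were 3 of 13 in ABCA, 5 of 9 in ABCB, 4 of 9 in ABCC, 3 of 4 in ABCD, the single ABCE gene, all 3 of ABCF and 0 of 6 in ABCG. Summed over members, the family held 311, 313 and 313 FPKM at 0 nM and 313, 305 and 305 FPKM at 100 nM. ABCE and ABCF together made up 64.4% to 64.9% of that sum in each library. Most ABC transcript in these cells, measured per length, thus came from the ribosome-linked genes.

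The ribosome-linked members stood at the top of the order. Abce1, which splits ribosomes after termination so that they can be reused, measured 82.43, 82.51 and 84.78 FPKM at 0 nM and 82.12, 78.95 and 80.27 FPKM at 100 nM. Abcf2 followed with a mean of 58.9 FPKM and Abcf1, which binds the initiation factor eIF2, with 46.9 FPKM. The multidrug efflux gene Abcb1b came next at 18.5 FPKM. Each of these 4 kept its place in all 6 libraries, since the ranges of neighbours in the order did not overlap. Below them, Abcf3 (12.7 FPKM), Abcc1 (12.0 FPKM) and Abca3 (10.8 FPKM) overlapped in range from one to the next. So did the run of Abcd3 (9.48 FPKM), Abcc4 (8.55 FPKM), Abcb8 (7.51 FPKM) and Abca2 (7.39 FPKM). Abcb10 stood by itself at 5.92 FPKM. Abcd4 (3.91 FPKM) overlapped Abca7 (3.64 FPKM), followed by Abcc5 (3.14 FPKM), Abcb6 (2.40 FPKM) and Abcc3 (1.95 FPKM).

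**Figure D1:**
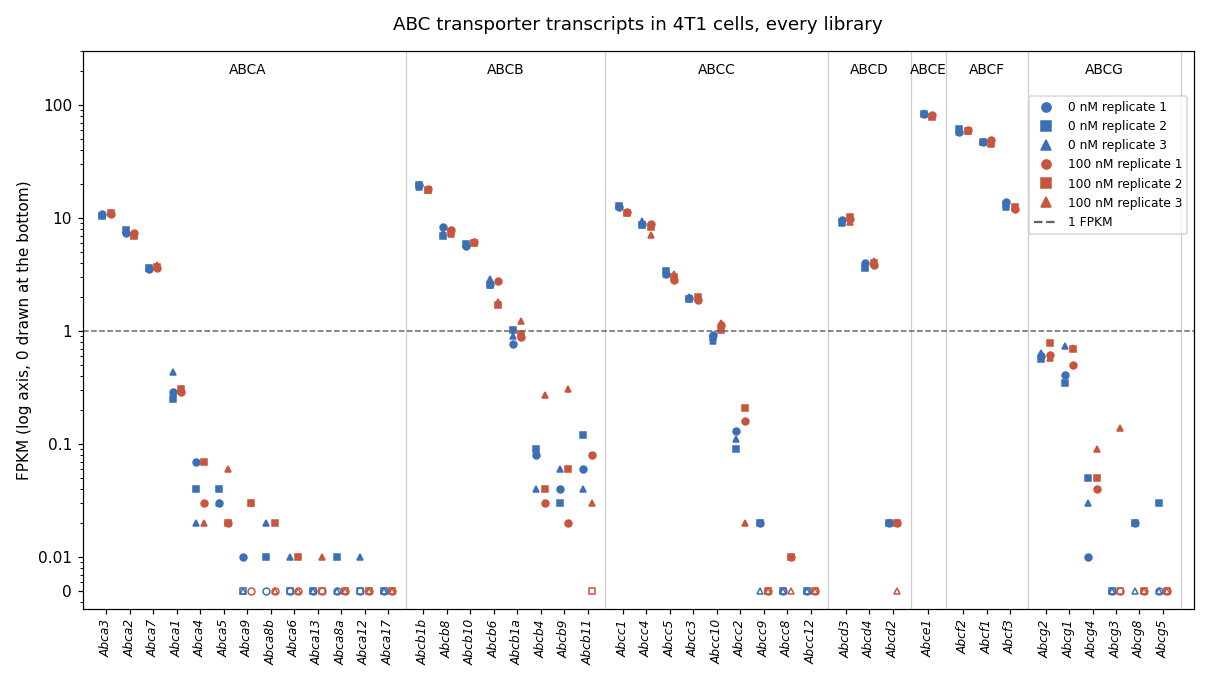
FPKM of 43 members in each of the 6 libraries on a log axis, grouped by subfamily, with values of 0 drawn at the bottom. Symbols stand for replicates, blue for 0 nM and red for 100 nM, and the dashed line marks 1 FPKM. Groups lie close together for each expressed member, while levels between members run from 0 to over 80 FPKM.

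Just under the limit of 1 FPKM were Abcc10 (mean 0.990 FPKM), Abcb1a (0.960 FPKM) and Abcg2 (0.630 FPKM), and Abcc3 and Abcb6 were among those just above it. Abcg1 (0.567 FPKM), a sterol exporter, and Abca1 (0.313 FPKM), which loads cholesterol and phospholipid onto apolipoprotein A-I, were low but above 0 in every library. The other 21 members included 16 that stayed below 0.1 FPKM in all libraries. Among them were Abcg5 and Abcg8, the paired plant sterol exporters of gut and liver, Abcc8 and Abcc9, the sulfonylurea receptors of potassium channels, and Abca12, the skin lipid transporter. Abca17 and Abcc12 were listed at 0 in all 6 libraries. Abcb11, the bile salt export pump of hepatocytes, had a mean of 0.0550 FPKM and Abcc2, which exports conjugates into bile, 0.120 FPKM.

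The 2 mouse genes for the multidrug pump P-glycoprotein differed widely in level, although they are neighbours in the genome. Abcb1b (chr5:8798147-8865935, plus strand) measured 19.43, 19.56 and 18.67 FPKM at 0 nM and 18.16, 17.54 and 17.73 FPKM at 100 nM. Abcb1a (chr5:8660077-8748575, plus strand) measured 0.77, 1.03 and 0.91 FPKM at 0 nM and 0.89, 0.94 and 1.22 FPKM at 100 nM. The copies are alike, with 88.0% identity over 3819 aligned coding bases, and 23.3% of the 31-base words of Abcb1a also occur in transcripts of other genes (16.0% for Abcb1b). The split of reads between them is therefore uncertain, above all for the lower Abcb1a. The start of their longest identical coding run, 338 bases, is shown as an example. Fragments that lie wholly within this run cannot be assigned by sequence. The 30 bases before it are included, and capitals mark the 4 positions in them at which the 100-base stretches from exons 12 and 13 are not the same (GRCm38, chr5:8702267-8702456 for Abcb1a and chr5:8824587-8824776 for Abcb1b, intron included in the span).
Abcb1a: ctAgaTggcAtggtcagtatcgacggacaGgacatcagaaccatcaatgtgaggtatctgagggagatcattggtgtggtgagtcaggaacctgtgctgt
Abcb1b: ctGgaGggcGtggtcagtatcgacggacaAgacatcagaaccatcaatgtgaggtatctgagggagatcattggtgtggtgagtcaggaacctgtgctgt
After the fourth capital the stretches are identical to their end. The third gene of this cluster, Abcb4, which moves phosphatidylcholine into bile, had a mean of only 0.0917 FPKM, 27782 bases beyond Abcb1b.

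Other neighbouring members also differed in level. Abca3, which packs surfactant phospholipid in lung, was at 10.8 FPKM on the plus strand of chromosome 17. Abca17 starts 964 bases away on the other strand and was listed at 0 throughout. Abcb8 and Abcf2 lie 155291 bases apart on chromosome 5 with means of 7.51 and 58.9 FPKM, and Abcc5 and Abcf3 lie 122183 bases apart on chromosome 16 with 3.14 and 12.7 FPKM. In the cluster of Abca8b, Abca8a, Abca9, Abca6 and Abca5 on chromosome 11, each member had a mean of at most 0.0333 FPKM. Abcg5 and Abcg8, which overlap on opposite strands of chromosome 17, had means of at most 0.00667 FPKM.

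Promoter windows of RefSeq (GRCm38.p6, 250 bases before to 50 after the start) were matched for 34 of the 45 members, and 32 of these lay within 1000 bases of the start used in the deposited tables. The windows of Abcb1a and Abcc12 lay farther away and were left out. Among those with no entry were Abca6, Abcb8, Abcc1, Abcc3, Abcc8, Abcd2, Abcd4, Abcg1 and Abcg4. The 5 windows shown hold from 4 to 29 CG dinucleotides, which are frequent in CpG island promoters and are in capitals here. They include Abce1, the highest member (chr8:79711691-79711990, minus strand, 27 CG), and Abcb1b (chr5:8797897-8798196, plus strand, 12 CG). Abcb1b had the fewest of the 13 expressed members with a window. Shown as well are the head-to-head pair Abca3 (chr17:24351773-24352072, plus strand, 29 CG) and Abca17 (chr17:24351010-24351309, minus strand, 21 CG), and Abcb11 (chr2:69342567-69342866, minus strand, 4 CG).
Abce1: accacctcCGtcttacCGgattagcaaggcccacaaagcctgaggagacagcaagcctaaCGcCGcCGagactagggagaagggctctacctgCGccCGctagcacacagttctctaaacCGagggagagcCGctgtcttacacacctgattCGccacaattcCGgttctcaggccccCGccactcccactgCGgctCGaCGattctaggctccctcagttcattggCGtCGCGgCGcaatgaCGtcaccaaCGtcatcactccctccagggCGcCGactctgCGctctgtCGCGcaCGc
Abcb1b: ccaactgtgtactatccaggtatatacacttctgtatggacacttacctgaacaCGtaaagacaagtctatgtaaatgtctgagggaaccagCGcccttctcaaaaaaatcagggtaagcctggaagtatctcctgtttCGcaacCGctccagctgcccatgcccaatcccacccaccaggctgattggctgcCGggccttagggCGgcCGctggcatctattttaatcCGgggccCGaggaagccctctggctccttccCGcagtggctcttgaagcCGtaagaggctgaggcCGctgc
Abca3: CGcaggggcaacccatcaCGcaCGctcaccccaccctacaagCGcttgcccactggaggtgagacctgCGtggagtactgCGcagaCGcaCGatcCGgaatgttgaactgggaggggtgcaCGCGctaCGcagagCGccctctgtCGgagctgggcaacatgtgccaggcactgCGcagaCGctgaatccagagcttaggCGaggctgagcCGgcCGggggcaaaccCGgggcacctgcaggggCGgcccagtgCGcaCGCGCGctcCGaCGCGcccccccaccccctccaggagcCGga
Abca17: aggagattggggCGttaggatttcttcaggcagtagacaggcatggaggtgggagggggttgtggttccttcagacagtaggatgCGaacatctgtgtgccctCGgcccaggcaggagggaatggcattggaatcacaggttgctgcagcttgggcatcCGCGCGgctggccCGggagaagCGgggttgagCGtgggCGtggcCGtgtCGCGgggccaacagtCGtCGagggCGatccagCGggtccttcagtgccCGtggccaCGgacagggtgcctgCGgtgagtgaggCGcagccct
Abcb11: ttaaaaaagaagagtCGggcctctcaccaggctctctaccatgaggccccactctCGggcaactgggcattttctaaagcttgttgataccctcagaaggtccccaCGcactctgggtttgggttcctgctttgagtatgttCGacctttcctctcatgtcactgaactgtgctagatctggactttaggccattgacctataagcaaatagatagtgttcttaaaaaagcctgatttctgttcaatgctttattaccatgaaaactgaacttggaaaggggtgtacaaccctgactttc
The 13 expressed members with a window had a median of 26 CG (range 12 to 45) and the 19 members below 1 FPKM a median of 11 CG (range 1 to 40). Over all 11660 protein-coding genes with a window the medians were 22 and 9 CG, so the family followed the same difference as other genes. Rich windows did not always go with expression. Abca5 held 40 CG at a mean of 0.0333 FPKM and Abca17 held 21 CG at 0. Abcg2, also under the limit of 1 FPKM, had 3 CG at 0.630 FPKM. The GC box GGGCGG, searched on both strands and itself holding a CG, was present in 17 of 32 members (53.1%) and in 60.1% of all windows. At matched level the shares were alike, 69.2% of expressed members against 69.9% of expressed genes, and 42.1% against 42% below 1 FPKM. The core of the antioxidant response element, TGACNNNGC, searched likewise on both strands, was found in 4 of 32 (12.5%; Abcc2, Abcc4, Abcc10 and Abca8b) and in 14.2% of all windows. Such matches describe letters only.

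**Figure D2:**
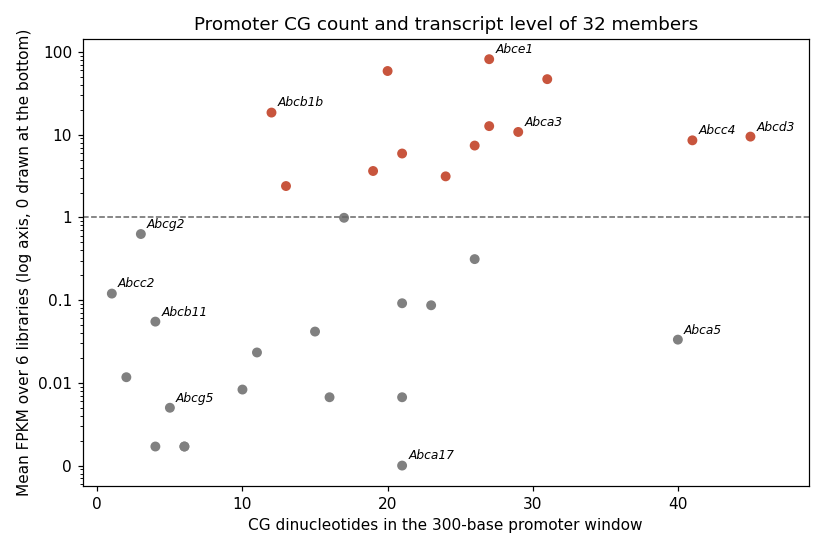
CG dinucleotides in the 300-base promoter window (x axis) against mean FPKM over 6 libraries (log axis, 0 at the bottom) for 32 members, 1 point each, red at or above 1 FPKM. Expressed members hold 12 to 45 CG, and members below the dashed line hold 1 to 40.

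Between 0 nM and 100 nM PFOS the family differed little. Abcc1, the multidrug resistance protein that exports glutathione conjugates, fell, and 1 other member was called higher. The other 17 expressed members did not pass the test (limma on log2(FPKM + 1), Benjamini-Hochberg adjusted p under 0.05 over all genes). Over all 11741 genes tested, 4.15% were called, 1.69% higher and 2.46% lower at 100 nM. A count of 1 of 19 in each direction is too small to set the family apart. At an unadjusted p under 0.05 there were 4 of 19 members, against 20.7% of all genes. For 8 of 19 members, 4 higher and 4 lower, no library of one group reached into the range of the other, against 26.9% of all genes (13.7% higher and 13.3% lower). Members also varied less within groups, with a median SD of 0.0367 against 0.0562 for all tested genes on the log2(FPKM + 1) scale. The lowest ratio of mean FPKM was 0.778 (Abcb6). The median difference of the 19 was -0.0059 on the log2(FPKM + 1) scale, against 0.0052 for all genes, and the median absolute difference was 0.07 against 0.06. Of the 17 not called, 13 had a 95% interval of the difference that stayed within 0.2 of 0.

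**Figure D3:**
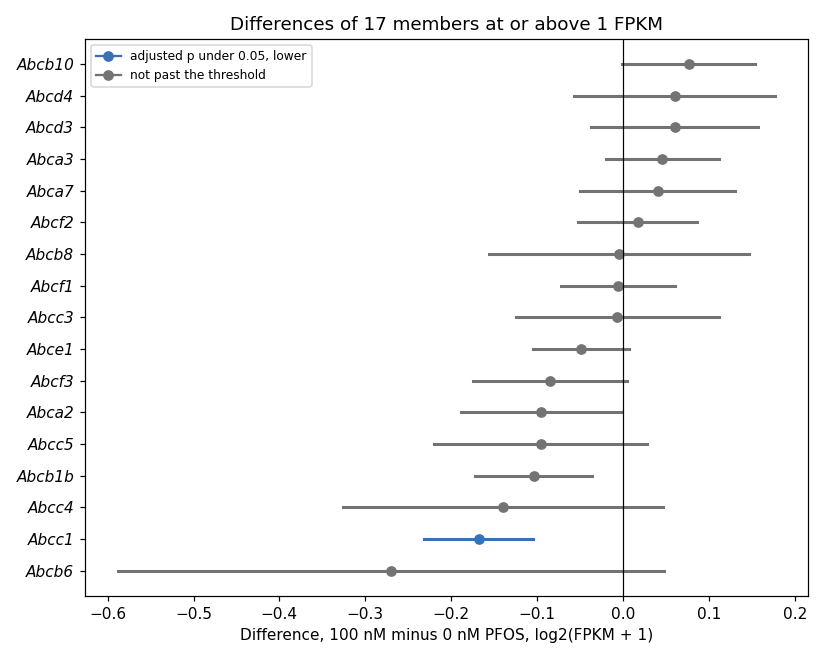
Difference of 100 nM minus 0 nM on the log2(FPKM + 1) scale for 17 expressed members, with points for the estimate and lines for the 95% interval of the limma fit. Abcc1 is in blue (called lower) and the other 16 in grey. The interval of Abcb6 is the widest.

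Among conjugate and drug exporters, Abcc1 (chr16:14361558-14475737, plus strand) measured 12.63, 12.87 and 12.82 FPKM at 0 nM and 11.35, 11.03 and 11.40 FPKM at 100 nM. All 3 libraries at 100 nM lay below all 3 at 0 nM. Its mean went from 12.8 ± 0.127 to 11.3 ± 0.201 FPKM (SD, n = 3 each), which on the log2(FPKM + 1) scale is a difference of -0.17 ± 0.03 (SE, limma adjusted p = 0.0255). The direction held when any 1 of the 6 libraries was left out, but the call did not. The limma adjusted p was then 0.0828, 0.101 and 0.0935 without replicates 1, 2 and 3 at 0 nM, and 0.0749, 0.0935 and 0.0521 without those at 100 nM.

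Abcc1 lies among genes that were also lower at 100 nM. Of 24 tested genes within 2.5 Mb on either side, 21 had a lower mean at 100 nM and 3 a higher one, with a median difference of -0.16. Over all tested genes, 52.6% had a difference above 0, and 2.46% were called lower and 1.69% higher. Of the 24, 6 were called lower and 0 higher, among them Mcm4, a replicative helicase subunit (62.4 to 54.7 FPKM), Dnm1l, the mitochondrial fission GTPase (27.7 to 24.6 FPKM), and Nde1 (32.4 to 28.1 FPKM). At -0.17 Abcc1 was close to the median of its neighbours. Abcc5 and Abcf3, farther along chromosome 16, also lie among genes with lower means, 40 of 47 and 37 of 45, of which 11 were called lower in each case. Both members lie 122183 bases apart, so their windows hold mostly the same genes and are not separate cases. Uneven windows were also seen around members that were not called. Around Abca7, 91 of 113 genes had a higher mean and 22 a lower one. The median difference there was 0.05, with 2 called higher and 0 lower. Around Abcd4 the counts were 37 of 42 and 5, with a median of 0.08 and again 2 called higher and 0 lower. Both medians were smaller in size than the -0.16 around Abcc1. Other windows were near even, such as that of Abcc3 with 20 of 39 higher. What part the chromosomal setting has in the value of Abcc1 was not tested.

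**Figure D4:**
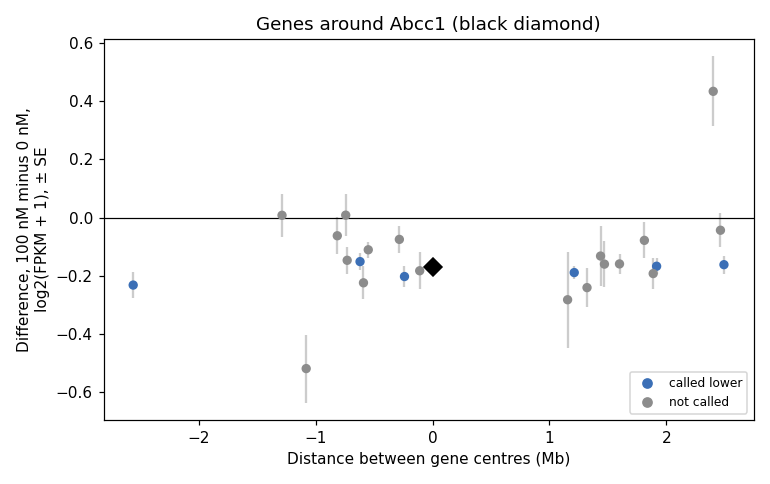
Differences of 100 nM minus 0 nM on the log2(FPKM + 1) scale (± SE) for tested genes within 2.5 Mb of Abcc1, by the distance between gene centres in Mb. The black diamond is Abcc1 and blue points are genes called lower. Of the 24 genes around it, 21 lie below 0.

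None of the other exporters of this kind passed the test. Abcc4, which exports cyclic nucleotides and prostaglandins, measured 8.86, 8.71 and 9.42 FPKM at 0 nM and 8.92, 8.33 and 7.06 FPKM at 100 nM, with the lowest value in replicate 3 (difference -0.14, limma adjusted p = 0.369). Abcc5, an exporter of nucleotide analogues, had 3.27 and 3.00 FPKM (difference -0.10, limma adjusted p = 0.353). Abcc3, an organic anion exporter, measured 1.96, 1.92 and 1.99 FPKM at 0 nM and 1.88, 2.00 and 1.95 FPKM at 100 nM, which overlapped. Abcb1b was lower in every library at 100 nM than in any at 0 nM, at means of 19.2 ± 0.481 and 17.8 ± 0.318 FPKM (SD, n = 3 each), but its difference of -0.10 ± 0.03 (SE) did not pass (limma adjusted p = 0.102). Summed, the ABCC subfamily held 27.7, 27.9 and 28.3 FPKM at 0 nM and 26.3, 25.6 and 24.8 FPKM at 100 nM. Abcc10, a further drug exporter under the limit for testing, measured 0.93, 0.87 and 0.81 FPKM at 0 nM and 1.13, 1.03 and 1.17 FPKM at 100 nM. Its groups did not overlap, and in the fit without a filter it had a limma adjusted p of 0.424. Abcg2, the breast cancer resistance protein that exports drugs and urate, measured 0.60, 0.57 and 0.64 FPKM at 0 nM and 0.61, 0.78 and 0.58 FPKM at 100 nM, and these overlapped.

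Among the mitochondrial and porphyrin transporters, Abcb10, which takes part in heme synthesis, was at 5.65, 5.85 and 5.72 FPKM at 0 nM and 6.16, 5.97 and 6.19 FPKM at 100 nM, with no overlap but no call (difference 0.08, limma adjusted p = 0.247). Abcb8, a further inner-membrane member, had 7.53 and 7.49 FPKM. Abcb6, linked to porphyrin transport, measured 2.63, 2.54 and 2.91 FPKM at 0 nM and 2.79, 1.70 and 1.80 FPKM at 100 nM. Replicate 1 at 100 nM matched the 0 nM libraries, and replicates 2 and 3 were lower. The difference of -0.27 ± 0.13 (SE) was not called (limma adjusted p = 0.312). It was -0.42 without replicate 1 at 100 nM (limma adjusted p = 0.0576) and -0.18 without replicate 2 (0.555). Gm29253, a processed transcript on the same strand at chr1:75171731-75185146 that covers nearly all of Abcb6, shares 52.1% of the words of Abcb6. It was at 0.06, 0.15 and 0 FPKM at 0 nM and at 0, 1.77 and 2.01 FPKM at 100 nM, high in the same 2 libraries in which Abcb6 was low. The values of both models added came to 2.69, 2.69 and 2.91 FPKM at 0 nM and 2.79, 3.47 and 3.81 FPKM at 100 nM. Each value is scaled by the length of its own model, and Gm29253 runs beyond Abcb6, so the sum is not an Abcb6 total. Gm29253 was chosen after its values were seen, and how fragments were divided between the models was not tested.

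The lipid and peroxisomal members showed no call. Abca3 measured 10.82, 10.40 and 10.60 FPKM at 0 nM and 10.87, 10.99 and 11.08 FPKM at 100 nM (difference 0.05, limma adjusted p = 0.407). Abca2, a lipid transporter of lysosomes, measured 7.31, 7.84 and 7.86 FPKM at 0 nM and 7.34, 6.97 and 7.03 FPKM at 100 nM (difference -0.10, limma adjusted p = 0.235). Abca7, which moves phospholipid, went from 3.58 to 3.71 FPKM in mean without a call. Abca1 was at 0.29, 0.25 and 0.43 FPKM at 0 nM and 0.29, 0.31 and 0.31 FPKM at 100 nM. Of the peroxisomal genes, Abcd3, which imports branched-chain fatty acids, measured 9.51, 9.25 and 9.03 FPKM at 0 nM and 9.73, 10.15 and 9.23 FPKM at 100 nM (difference 0.06, limma adjusted p = 0.463). The lysosomal cobalamin transporter Abcd4 had 3.81 and 4.01 FPKM. Abcd2, a further peroxisomal member, was at 0.0167 FPKM in mean over the 6 libraries.

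Among the ribosome-linked members, Abce1 had means of 83.2 ± 1.33 and 80.4 ± 1.59 FPKM (SD, n = 3 each), a difference of -0.05 ± 0.02 (SE) with a limma adjusted p of 0.298. Its lowest value at 0 nM, 82.43 FPKM, and its highest at 100 nM, 82.12 FPKM, nearly touched. Abcf3 measured 13.73, 13.10 and 12.49 FPKM at 0 nM and 12.14, 12.40 and 12.34 FPKM at 100 nM (difference -0.08, limma adjusted p = 0.263). Abcf2 measured 57.57, 60.97 and 57.12 FPKM at 0 nM and 59.81, 58.97 and 58.91 FPKM at 100 nM, with an interval of the difference from -0.05 to 0.09. Abcf1 had means of 47.0 and 46.9 FPKM with an interval from -0.07 to 0.06. The interval of Abce1 was the narrowest of the 19 tested members.

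In replicate 3 at 100 nM, 3 members under the limit for testing passed 0.1 FPKM that had stayed below it in the other 5 libraries. Abcg4, Abca5 and Abca13 were also highest there but at no more than 0.09 FPKM, and so were Abcb1a and Abcc10 at the values given above. Abcc2 was lowest in that library, at 0.02 FPKM against 0.09 to 0.21 FPKM elsewhere, and so was Abcd2, at 0 against 0.02 FPKM. Abcb4 was at 0.27 FPKM there and at 0.03 to 0.09 FPKM elsewhere. Abcb9, a lysosomal peptide transporter, was at 0.31 FPKM against 0.02 to 0.06 FPKM. Abcg3, a rodent relative of Abcg2, was at 0.14 FPKM against 0. Tap1 and Tap2, which carry peptides for MHC class I and belong to the ABCB subfamily under other symbols, were also highest there. Tap1 measured 4.54, 4.01 and 4.71 FPKM at 0 nM and 4.53, 4.52 and 6.88 FPKM at 100 nM, and Tap2 10.51, 11.16 and 11.85 FPKM and 12.18, 10.80 and 13.49 FPKM. Neither was called (limma adjusted p = 0.492 and 0.499), and without that library the difference of Tap1 went from 0.20 to 0.03. Cftr, the chloride channel of the ABCC subfamily, was at 0.05, 0.03 and 0.04 FPKM at 0 nM and at 0.05, 0.05 and 0 FPKM at 100 nM. The T cell, natural killer cell and interferon genes described above were high in the same library, and their part in these values was not tested.

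**Figure D5:**
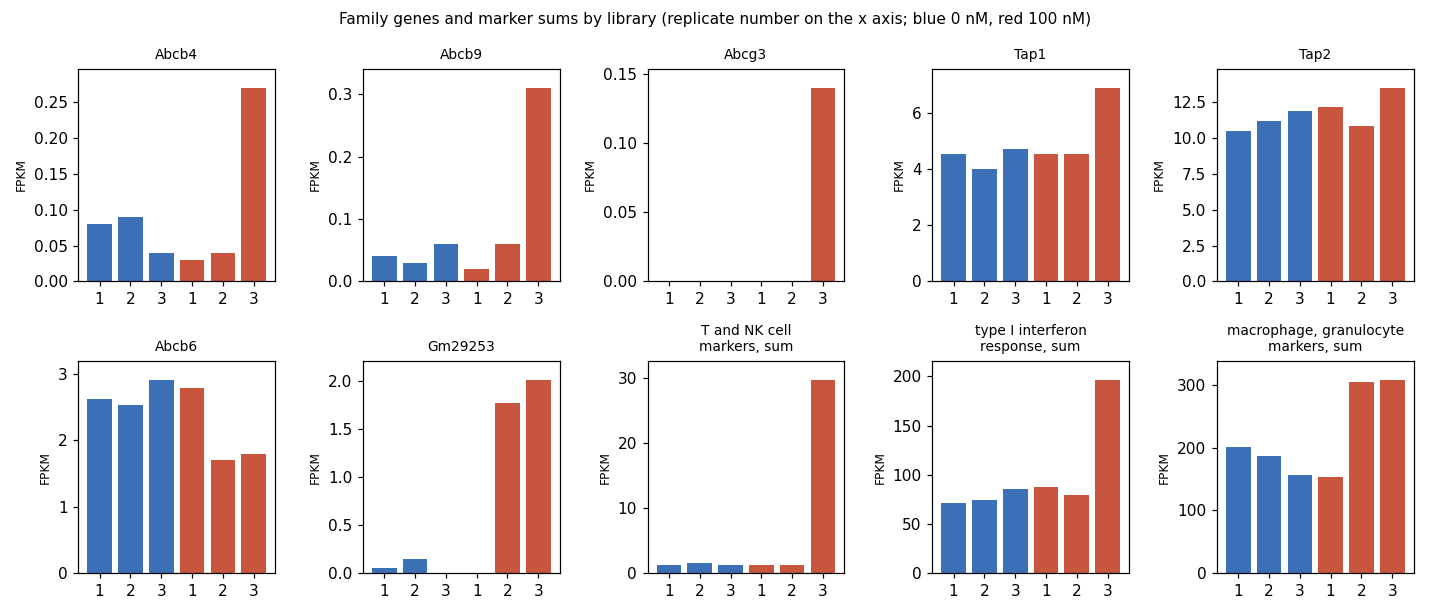
FPKM in each library for 5 family genes, for Abcb6 and the overlapping Gm29253, and sums of FPKM for 3 marker lists, with 0 nM in blue and 100 nM in red and the replicate number on the x axis. Abcb4, Abcb9, Abcg3 and Tap1 and the T cell and interferon sums are highest in replicate 3 at 100 nM, and Gm29253 is high in replicates 2 and 3, where Abcb6 is low.

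Partner genes of the transporters were taken in lists of 112 symbols, with Tap1, Tap2 and Cftr counted in, and 89 were tested. They gave 1 higher and 2 lower calls, where 4.15% of all tested genes were called, so these lists do not stand out by their calls. At an unadjusted p under 0.05 there were 24 of 89, against 20.7% of all genes, and the median difference was 0.0154 against 0.0052. Among regulators of ABC genes, 0 of 11 were called higher and 1 lower. That was Ppard, a lipid-sensing nuclear receptor, at 12.78, 12.65 and 12.68 FPKM at 0 nM and 11.36, 11.64 and 11.61 FPKM at 100 nM (difference -0.13 ± 0.03 SE, limma adjusted p = 0.0441). Nfe2l2, which encodes NRF2, an activator of Abcc1 and other exporters, had 24.2 and 24.4 FPKM, and the sterol sensor Nr1h2 16.6 and 16.3 FPKM, neither called. Among partners of the ribosome-linked members, 0 of 12 were called higher and 1 lower. The lower one was the termination factor Gspt1, at 64.33, 65.47 and 64.68 FPKM and 59.33, 56.54 and 55.65 FPKM (difference -0.18 ± 0.03 SE, limma adjusted p = 0.0245). Gspt1 lies at chr16:11219292-11254325, on the chromosome of Abcc1 and outside the window described for that gene. What part the chromosomal setting has in the value of Gspt1 was not tested. Among other carriers and membrane traffic genes, 1 of 8 was called higher and 0 lower. It was Rab11a, a recycling endosome GTPase, at 23.48, 22.23 and 23.39 FPKM and 26.64, 25.69 and 25.93 FPKM (difference 0.17 ± 0.03 SE, limma adjusted p = 0.0346). The calls of Ppard and Rab11a were lost without any 1 of the 6 libraries (limma adjusted p 0.0874 to 0.137 and 0.0725 to 0.101). That of Gspt1 was lost without each library but replicate 1 at 100 nM (0.0521 to 0.0992).

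The other lists had no call in the limma test. Of 11 sterol and lipid efflux partners, 10 had a difference above 0, as did 52.6% of all tested genes. The list had a median difference of 0.10, with 5 at an unadjusted p under 0.05. The smallest p was that of Scarb1, the lipoprotein receptor, at 10.6 and 11.5 FPKM (limma adjusted p = 0.0683). Of 10 glutathione and conjugation enzymes, 4 had an unadjusted p under 0.05, and the median difference was 0.07. Of the 4, Gsto1, Gclc and Gsta4 had a difference above 0 and Gstp1 one below 0 (-0.08). The smallest p in this list was that of Gsto1 at 51.3 and 55.2 FPKM (limma adjusted p = 0.0632), and the largest difference that of Gsta4 at 0.25. Of 15 heme and iron-sulfur partners, 1 had an unadjusted p under 0.05, Glrx5, a glutaredoxin of iron-sulfur assembly, at 14.97 and 16.5 FPKM (limma adjusted p = 0.0675), with a list median of -0.0139. Of 9 peroxisomal partners, 1 did, Hsd17b4 at 14.9 and 13.6 FPKM (limma adjusted p = 0.0888), with a list median of -0.0130. Of 11 MHC class I loading partners, 1 did, Tapbp at 23.7 and 26.8 FPKM (limma adjusted p = 0.206), again highest in replicate 3 at 100 nM at 29.68 FPKM.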

How the data were processed

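Polyadenylated RNA of 6 libraries was prepared with dUTP strand marking and read in pairs, per the labels' protocols. The deposited values are FPKM per gene, made by the authors with fastp, HISAT2 and StringTie, per the submitters' processing notes, which name the builds GRCh38 and mm10. Not given in the sources used here: tool versions, the role of GRCh38 and whether quantification used strand. Identifiers are mouse: 28350 of 28418 were matched to GENCODE M21 (GRCm38), and 37 of the 45 members had the same start and end there.

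The files hold no counts. Values of short single-transcript genes were tried against whole read steps, and at best 31.0% to 36.7% lay within 0.1 of a whole number, so reads were not recovered and the precision is known only from the replicates. The test was limma-trend with limma 3.58.1 in R 4.3.3, fitted two-sided to log2(FPKM + 1) as 100 nM minus 0 nM, over the 11741 genes whose mean reached 1 FPKM, with Benjamini-Hochberg adjustment over all of them. It was tested on simulated data. Fold changes on this scale understate the change of low genes. No replicate block was used, since the numbers did not pair the libraries. Shared sequence was the percentage of 31-base words found in transcripts of other genes. Tables and plots were made in Python 3.11.15 (numpy 2.4.6, pandas 2.3.3, matplotlib 3.10.9).

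Members and gene lists were chosen with earlier results of these data known. Named with values in each library were called members, the 8 smallest p-values, the highest member of each subfamily, the drug exporters Abcb1a, Abcb1b, Abcc1 and Abcg2, Tap1, Tap2, Cftr, the 3 members on each side of 1 FPKM, and in partner lists the called genes or the smallest p. Nfe2l2, Nr1h2, Gclc, Gsta4, Gstp1, Gm29253, the named neighbours of Abcc1 and other members shown by library were chosen after their values were seen. Results for some members are not reported here. Alternatives covered pseudocounts, filters, scaling, moderation, gene type, the replicate block and leaving out libraries.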

Additional observations from a re-analysis of the deposited data

How the results depend on the processing

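The count of 487 changed genes and of 2 changed members held within 1.5 times under pseudocounts of 0.1 and 0.5, a mean of at least 5 FPKM, median-ratio scaling, quantile normalization, robust moderation and protein-coding genes only. In limma fits the counts were 204 genes and 1 member without a filter, 294 and 1 without a variance trend, and 86 and 0 without replicate 3 of both groups together. Same-numbered libraries did not deviate together (correlations -0.033, -0.053 and 0.007), and with the replicate block the counts were 58 and 0, with an adjusted p of 0.108 for Abcc1. Leaving out 1 library at a time gave 122 to 289 genes and 0 members each time, with 3 to 7 members at an unadjusted p under 0.05 (3 with the block and 4 without replicate 3 of both groups). Abcc1 remained the called member without a filter and without a trend (adjusted p 0.0429 and 0.0425). Over 17 alternatives the difference ran from -0.18 to -0.15 for Abcc1. Ppard, Gspt1 and Rab11a lost their calls without a filter, without a trend, with the block and without replicate 3 of both groups. The difference of Abcf2, 0.02, ran from -0.0004 without replicate 3 at 0 nM to 0.0459 without replicate 2 at 0 nM, and the cause was not tested. Depth is unknown, so the number of fragments behind the low members is not known.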
